A study of Homo sapiens with 9 samples.

Results

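The 10 genes described here encode parts of the Notch signalling pathway and were chosen by gene symbol from a table of 25084 genes, in which all 10 were found. They are the receptors NOTCH1, NOTCH2 and NOTCH3, the ligands JAG1, JAG2 and DLL3, the DNA-binding factor RBPJ, its coactivator MAML2 and the target genes HES1 and HEY1. Their transcripts were measured by RNA sequencing in LAN5 cells, an established human neuroblastoma line with an amplified MYCN gene. All 9 libraries came from cells that took up an siRNA (a short RNA that leads to destruction of the transcript it pairs with) by electroporation in the form of nucleofection, and grew for 72 h in medium with fetal calf serum. The control siRNA (siCTR), the siRNA labelled siMYCN_2 and the siRNA labelled siHAND2_3 each gave 3 libraries, called siCTR, siMYCN and siHAND2 below. Both targets are transcription factors of the helix-loop-helix type, and the series set out to find the genes that the pair regulates. The labels name 1 siRNA per target and 1 cell line. They do not say whether the replicates were separate cultures, so p-values measure the spread between these libraries, which may be technical.

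In Notch signalling a ligand on one cell binds a receptor on its neighbour, the receptor is cut by ADAM proteases and then by gamma-secretase, and the freed intracellular part enters the nucleus. There it joins RBPJ and a Mastermind protein such as MAML2 and activates genes such as HES1 and HEY1, which encode repressors of the helix-loop-helix class. In the developing nervous system the pathway is known for holding back neuronal differentiation, and in neuroblastoma it has been linked to the mesenchymal state of the tumour cells.

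Values are CPM, a gene's reads scaled to the total of reads assigned to genes in its library. The libraries held 21.1 to 32.7 M assigned reads, so that 1 CPM stood for 21.1 to 32.7 reads. MYCN measured 1848, 1894 and 1786 CPM with the control siRNA, 1338, 1245 and 1285 CPM with siMYCN and 898, 969 and 877 CPM with siHAND2. HAND2 measured 516, 499 and 489 CPM with the control siRNA, 588, 557 and 568 CPM with siMYCN and 268, 267 and 280.4 CPM with siHAND2. Each target was thus lower in its own knockdown, to 70.0% of the siCTR mean for MYCN and 54.2% for HAND2. MYCN was lower still in siHAND2, at 49.6% (siHAND2 against siMYCN -0.50 on the log2 scale, limma, adjusted p = 6.21e-07). HAND2 was higher in siMYCN than in siCTR (0.19, adjusted p = 0.00183). The direct comparison of the knockdowns therefore sets libraries lower in both transcripts against siMYCN. All 10 markers of noradrenergic neuroblastoma cells that were looked at, such as DBH, were at 1 CPM or more in every library, and several of them changed in level. No Schwann, endothelial or leukocyte marker passed 1.25 CPM in any library (5 of 6, 5 of 5 and 3 of 6 listed markers were found in the table).

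Among the receptors, NOTCH2 and NOTCH3 rose in siHAND2 and NOTCH1 was close to the limit of detection in every group. NOTCH2 (chromosome 1, 119911553 to 120100779, GRCh38) had the largest response of the 10 genes. It measured 83.6, 79.7 and 88.3 CPM with the control siRNA, 76.3, 70.5 and 81.8 CPM with siMYCN and 174, 166 and 157 CPM with siHAND2. The siHAND2 libraries were all high and far apart from the rest, while those of siMYCN and siCTR overlapped. The siHAND2 mean of 165 ± 8.42 CPM was 1.97 times the siCTR mean of 83.9 ± 4.32 CPM (SD, n = 3 libraries each). On the log2(CPM + 1) scale, on which all tests were made, NOTCH2 rose by 0.97 in siHAND2 (standard error 0.06, limma, Benjamini-Hochberg adjusted p = 2.3e-09), and 1.07% of the genes tested had a larger absolute change. It differed by -0.14 in siMYCN (adjusted p = 0.0703), and siHAND2 exceeded siMYCN by 1.11 (adjusted p = 2.75e-10). The siMYCN difference passed the threshold of 0.05 after median-ratio rescaling (-0.19), after quantile normalization (-0.20), without siMYCN replicate 3 (-0.19) and without siHAND2 replicate 3 (-0.14). It also passed with replicate number as a term in the fit (-0.14).

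NOTCH2 has near-identical partial copies in the genome, the NOTCH2NL genes, and how the authors assigned reads that fit several copies is not given in the sources used here. NOTCH2NLC measured 5.75 ± 0.812 CPM with the control siRNA, 7.90 ± 0.75 CPM with siMYCN and 7.52 ± 0.821 CPM with siHAND2 (SD, n = 3 libraries). NOTCH2NLA stayed between 0.954 and 2.16 CPM over the 9 libraries and NOTCH2NLB at or under 0.163 CPM. NOTCH2NLC rose in siHAND2 (0.34, limma, adjusted p = 0.021), as NOTCH2 did, and in siMYCN (0.40, adjusted p = 0.00636), where NOTCH2 measured 76.2 ± 5.62 CPM. Reads shared between the copies cannot be told apart here.

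NOTCH3 (chromosome 19, 15159038 to 15200995), a receptor known for its role in vascular smooth muscle, measured 39.9, 37.2 and 33.7 CPM with the control siRNA, 34.1, 30.9 and 32.9 CPM with siMYCN and 52.9, 52.7 and 45.2 CPM with siHAND2. The 3 siHAND2 libraries again lay above all others. NOTCH3 rose by 0.43 in siHAND2 (standard error 0.07, limma, adjusted p = 0.000213), from 36.97 ± 3.10 to 50.3 ± 4.39 CPM, and siHAND2 exceeded siMYCN by 0.60 (adjusted p = 6.4e-06). In siMYCN it differed by -0.17 (adjusted p = 0.0696), with libraries that overlapped those of siCTR. That difference passed the threshold after median-ratio rescaling (-0.23) and quantile normalization (-0.22), in a fit of the siMYCN and siCTR libraries alone (-0.17), without siCTR replicate 3 (-0.23) and without siHAND2 replicate 3 (-0.17). It also passed with replicate number as a term in the fit (-0.17).

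NOTCH1 (chromosome 9, 136494433 to 136546048), the receptor known from T-cell leukaemia, measured 0.611, 0.374 and 0.617 CPM with the control siRNA, 0.604, 0.499 and 0.274 CPM with siMYCN and 0.625, 0.518 and 0.319 CPM with siHAND2. These values stood for 8 to 20 reads per library. The groups overlapped, and NOTCH1 was left out of the tests because it did not reach 1 CPM in 3 or more libraries. With no filter it differed by -0.08 in siMYCN and -0.05 in siHAND2 (limma, adjusted p = 0.729 and 0.83), so no change was detectable at this depth.

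**Figure D1:**
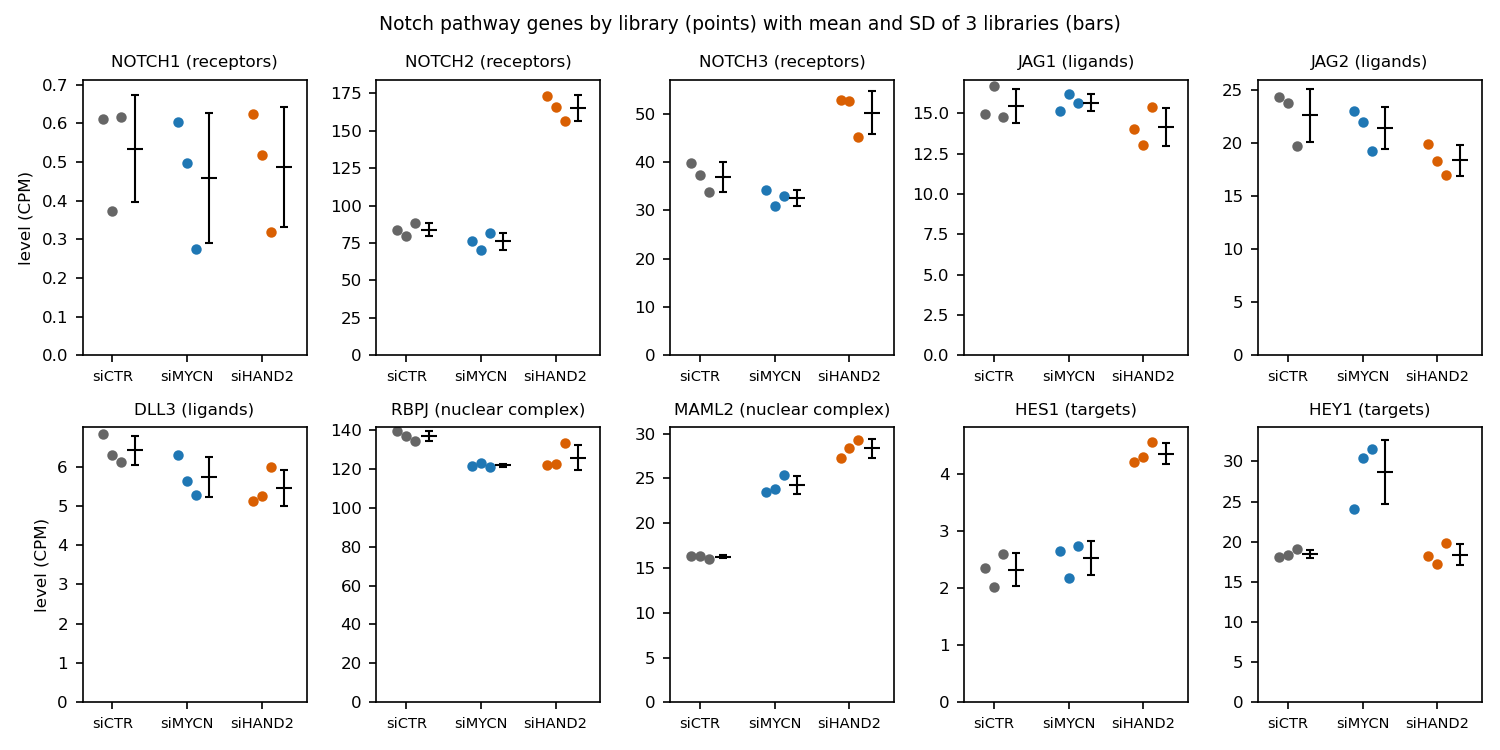
Level in CPM (vertical axis, from 0, a scale of its own for each gene) of the 10 Notch pathway genes in each library (points), by siRNA group, with the mean and SD of 3 libraries as bars. The siHAND2 points of NOTCH2, NOTCH3, MAML2 and HES1 lie above all siCTR points, and the siMYCN points of MAML2 and HEY1 lie above all siCTR points.

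Levels were scaled by transcript length, so that genes can be compared. NOTCH1, NOTCH2 and NOTCH3 together summed to 11.7 ± 0.338 CPM per kb with the control siRNA, 10.5 ± 0.62 CPM per kb with siMYCN and 20.3 ± 1.23 CPM per kb with siHAND2. NOTCH2 held 61.1%, 61.7% and 66.2% of that sum in the siCTR libraries, 62.5%, 63.1% and 65.2% in siMYCN and 71.2%, 70.3% and 72.3% in siHAND2. NOTCH3 held nearly all the rest, and NOTCH1 held at most 0.592% in any library. NOTCH4, at 3.19 to 4.59 CPM over all libraries, was not part of the sum. The ratio of NOTCH2 to NOTCH3 per length was 1.74 ± 0.22 with siCTR, 1.77 ± 0.101 with siMYCN and 2.504 ± 0.124 with siHAND2 (SD, n = 3 libraries each). Its siHAND2 values, 2.49, 2.39 and 2.63, lay above all others, the highest of which was 1.99. Against each of the other groups this gave p = 0.1 in a two-sided exact permutation test, the smallest that 3 against 3 allows (adjusted p = 0.12 over 6 such tests), and siMYCN against siCTR gave p = 0.7. With the union of all annotated exons as length the mean ratios were 1.28, 1.31 and 1.85 in siCTR, siMYCN and siHAND2. The shares and the ratio thus depend on the length, which is the same in all groups.

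Most of the markers of mesenchymal or stromal cells that could be tested also rose in siHAND2. The 13 listed markers summed to 835 to 889 CPM in siCTR, 1071 to 1124 CPM in siMYCN and 1496 to 1682 CPM in siHAND2. VIM made up most of these sums, with means of 525, 696 and 1011 CPM. Of the 9 that could be tested, 8 rose in siHAND2 and 6 in siMYCN, beside 18.1% and 24.5% of all genes tested. The largest of the siHAND2 rises was that of DCN (3.07), from a siCTR mean of 0.431 CPM to 11.0 CPM. COL1A2 (2.67) went from 1.66 to 15.9 CPM and LUM (2.45) from 9.15 to 54.7 CPM. TWIST1 did not rise in siHAND2 (-0.01, limma, adjusted p = 0.89). VIM, the intermediate filament vimentin, rose by 0.94 in siHAND2 (limma, adjusted p = 4.76e-10), and PDGFRB, a receptor of pericytes and fibroblasts, by 0.98 (adjusted p = 3.84e-09). COL1A1 stayed at or under 0.936 CPM in every library. POSTN was under 0.05 CPM in all siCTR and siMYCN libraries and measured 0.428, 0.319 and 0.532 CPM in siHAND2. COL1A1 and PRRX1, both too low to be tested, had means of 50.4% and 70.1% of siCTR in siHAND2. In siMYCN these were 70.4% and 54.2%. Of the 10 noradrenergic neuroblastoma markers, 4 rose and 2 fell in siHAND2, beside 18.1% and 11.8% of all genes tested. In siMYCN 8 rose and 0 fell, beside 24.5% and 11.4%. DBH, the enzyme that makes noradrenaline, fell to 49.4% of siCTR in siHAND2 (-1.01, limma, adjusted p = 6.84e-10), and TH, which starts that synthesis, to 48.6% (-0.70, adjusted p = 0.000174). The neuronal gene STMN2 rose to 194% of siCTR there (0.95, adjusted p = 1.81e-09). In bulk samples more cells of a type and more RNA per cell cannot be told apart, and the part of these markers in the receptor changes was not tested.

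Of the ligands JAG1, JAG2 and DLL3, JAG2 passed the test in siHAND2, and none passed in siMYCN or between the knockdowns. JAG2 (chromosome 14, 105140982 to 105168824) encodes a Jagged-type ligand. It measured 24.4, 23.7 and 19.8 CPM with the control siRNA, 23.0, 21.9 and 19.3 CPM with siMYCN and 19.9, 18.3 and 17.0 CPM with siHAND2. Replicate 3 was the lowest library in each group, and the highest siHAND2 library lay above the lowest siCTR library. JAG2 changed by -0.28 in siHAND2 (standard error 0.09, limma, adjusted p = 0.0201). The call was lost with no intensity trend (-0.28), without siCTR replicate 1 (-0.23) or 2 (-0.25) and without siHAND2 replicate 2 (-0.28) or 3 (-0.23). Between the knockdowns JAG2 differed by -0.21 (adjusted p = 0.084), which passed without siMYCN replicate 3 (-0.28) and without siHAND2 replicate 1 (-0.26). It also passed with replicate number as a term in the fit (-0.21).

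DLL3 (chromosome 19, 39498895 to 39508481) encodes a Delta-like protein that is known to act inside the cell as an inhibitor of Notch and is a cell surface target in neuroendocrine tumours. It measured 6.82, 6.29 and 6.12 CPM with the control siRNA, 6.28, 5.64 and 5.28 CPM with siMYCN and 5.13, 5.26 and 5.99 CPM with siHAND2. The siHAND2 libraries all lay below those of siCTR, the nearest at 5.99 against 6.12 CPM. The differences of -0.20 in siHAND2 (limma, adjusted p = 0.113) and -0.14 in siMYCN (adjusted p = 0.253) did not pass the test, apart from -0.28 in siHAND2 after quantile normalization.

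JAG1 (chromosome 20, 10637684 to 10673999), the main Jagged ligand of many tissues, measured 14.9, 16.7 and 14.8 CPM with the control siRNA, 15.1, 16.2 and 15.7 CPM with siMYCN and 14.0, 13.1 and 15.4 CPM with siHAND2. The groups overlapped. Its differences were -0.12 in siHAND2 (limma, adjusted p = 0.241) and 0.02 in siMYCN (adjusted p = 0.876), neither of which passed the test in any alternative.

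The nuclear partners moved in opposite directions, MAML2 up and RBPJ slightly down, in both knockdowns. MAML2 (chromosome 11, 95976598 to 96343195) encodes a Mastermind coactivator that bridges the receptor fragment and RBPJ to histone acetyltransferases. It measured 16.3, 16.4 and 16.0 CPM with the control siRNA, 23.5, 23.8 and 25.4 CPM with siMYCN and 27.3, 28.4 and 29.3 CPM with siHAND2. The groups did not overlap: siCTR was lowest, siMYCN in the middle and siHAND2 highest. MAML2 rose by 0.77 in siHAND2 (standard error 0.06, limma, adjusted p = 4.68e-08) and by 0.55 in siMYCN (adjusted p = 2.57e-06), and siHAND2 exceeded siMYCN by 0.22 (adjusted p = 0.01). The means of 16.2 ± 0.174, 24.2 ± 1.04 and 28.3 ± 1.03 CPM put siMYCN at 149% and siHAND2 at 175% of siCTR (SD, n = 3 libraries each).

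RBPJ (chromosome 4, 26163455 to 26435131) encodes the DNA-binding protein through which all the receptors act. It measured 139, 137 and 134 CPM with the control siRNA, 121, 123 and 121 CPM with siMYCN and 122, 122 and 133 CPM with siHAND2. All knockdown libraries lay below all siCTR libraries, although siHAND2 replicate 3 (133 CPM) was close to siCTR replicate 3 (134 CPM). RBPJ fell by 0.17 on the log2 scale in siMYCN (standard error 0.04, limma, adjusted p = 0.00618). In siHAND2 the change of -0.12 was near the threshold (adjusted p = 0.0416) and passed it in 8 of 19 alternative fits. It was lost in the fits that left out any library other than siHAND2 replicate 3 (-0.10 to -0.14), with no filter on low values, with no intensity trend and in a fit of siHAND2 and siCTR alone (-0.12 in each).

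The target genes responded to different siRNAs: HES1 rose in siHAND2 and HEY1 in siMYCN. HES1 (chromosome 3, 194136148 to 194138732), a repressor that keeps progenitors from differentiating, measured 2.35, 2.02 and 2.61 CPM with the control siRNA, 2.66, 2.19 and 2.74 CPM with siMYCN and 4.21, 4.30 and 4.57 CPM with siHAND2. The siHAND2 libraries were all high, and siMYCN overlapped siCTR. These values stood for 54 to 129 reads per library. HES1 rose by 0.69 in siHAND2 (standard error 0.11, limma, adjusted p = 0.00013), differed by 0.08 in siMYCN (adjusted p = 0.578) and was 0.61 higher in siHAND2 than in siMYCN (adjusted p = 0.000425). The ratio of the siHAND2 and siCTR means was 1.87. HES1 lies only a little above 1 CPM, and the size of its log2 change in siHAND2 moved with the pseudocount, from 0.88 at 0.1 to 0.35 at 5, with the call kept. Between the knockdowns it went from 0.77 to 0.31.

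HEY1 (chromosome 8, 79762371 to 79767857), a related repressor known from heart and vessel development, measured 18.1, 18.3 and 19.1 CPM with the control siRNA, 24.1, 30.4 and 31.5 CPM with siMYCN and 18.2, 17.2 and 19.8 CPM with siHAND2. All siMYCN libraries were high, though replicate 1 less so than the other ones, and siHAND2 overlapped siCTR. HEY1 rose by 0.60 in siMYCN (standard error 0.08, limma, adjusted p = 5.17e-05), and its mean there was 155% of that in siCTR. It differed by -0.01 in siHAND2 (adjusted p = 0.946), and siHAND2 was 0.61 below siMYCN (-0.61, adjusted p = 4.56e-05). The direct comparison of the knockdowns thus separated the targets in opposite directions.

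Within each library, the ratio of HEY1 to HES1 per transcript length was 5.52, 6.49 and 5.24 with siCTR, 6.495, 9.99 and 8.23 with siMYCN and 3.10, 2.87 and 3.11 with siHAND2. The means were 5.75 ± 0.657, 8.24 ± 1.75 and 3.02 ± 0.135 (SD, n = 3 libraries each). With the union of all annotated exons as length the means were 3.01, 4.31 and 1.58, so the ratio depends on the length, which is the same in all groups. The siHAND2 values were apart from all others, while the lowest siMYCN value was almost equal to the highest siCTR value. Each pair of groups gave p = 0.1 in a two-sided exact permutation test, the smallest that 3 against 3 allows (adjusted p = 0.12 over 6 such tests).

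**Figure D2:**
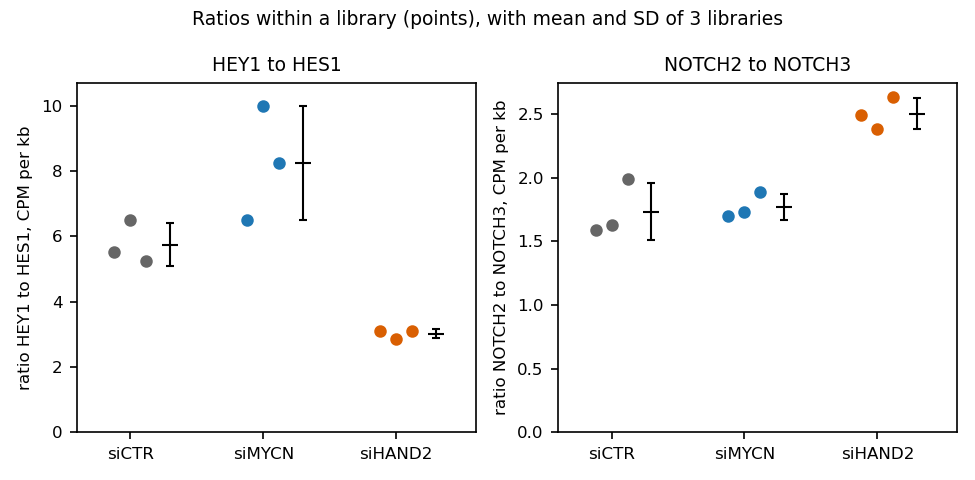
Ratio of HEY1 to HES1 (left) and of NOTCH2 to NOTCH3 (right) within each library, in CPM per kb of transcript on both sides, from 0; points are libraries and bars the mean and SD of 3 libraries. The siHAND2 libraries have the lowest HEY1 to HES1 ratios (2.87 to 3.11) and the highest NOTCH2 to NOTCH3 ratios (2.39 to 2.63).

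The promoters of HES1, NOTCH2 and MAML2, which had the largest rises in siHAND2 among the 10 genes, are shown. HES1 is a known direct target of RBPJ. The 250 bases before the annotated start were taken from RefSeq (GRCh38.p14), 5′ to 3′ on the strand of the gene: chr3:194135898-194136147 (plus strand) for HES1, chr1:120069663-120069912 (minus strand) for NOTCH2 and chr11:96343196-96343445 (minus strand) for MAML2. The RefSeq start of NOTCH2 lies inside the span that the table gives for the gene. Capitals mark matches, on either strand, to TGGGAA (the core bound by RBPJ), CACGTG (the E-box of the MYC family), CATCTG (an E-box form bound by dimers such as those of HAND2) or CACGNG (sites of HES and HEY proteins, which include CACGTG).
HES1: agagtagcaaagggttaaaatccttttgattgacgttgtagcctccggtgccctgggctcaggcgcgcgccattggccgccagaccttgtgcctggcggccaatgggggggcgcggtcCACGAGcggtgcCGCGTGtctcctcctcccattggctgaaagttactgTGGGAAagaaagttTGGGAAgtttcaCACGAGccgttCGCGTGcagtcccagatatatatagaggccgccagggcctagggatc
NOTCH2: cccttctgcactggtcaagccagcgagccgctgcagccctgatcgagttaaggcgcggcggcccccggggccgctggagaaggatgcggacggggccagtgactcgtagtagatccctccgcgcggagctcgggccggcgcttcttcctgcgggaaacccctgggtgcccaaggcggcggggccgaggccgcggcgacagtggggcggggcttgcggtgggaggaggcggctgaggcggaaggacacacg
MAML2: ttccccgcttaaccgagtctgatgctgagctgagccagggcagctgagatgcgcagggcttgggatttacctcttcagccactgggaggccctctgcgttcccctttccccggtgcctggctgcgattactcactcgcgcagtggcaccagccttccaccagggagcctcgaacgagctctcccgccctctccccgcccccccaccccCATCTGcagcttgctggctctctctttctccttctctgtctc
HES1 held 2 matches to TGGGAA, whose first bases lay 84 and 70 bases before the start, and 4 matches to CACGNG, first bases at 132, 120, 58 and 47. MAML2 held 1 match to CATCTG, first base at 42, and the NOTCH2 window held none of these letters. Of 35116 RefSeq promoter windows of this length, 20.8% held TGGGAA and 2.90% held it at least 2 times. CACGNG was in 26.7%, CATCTG in 12.2% and CACGTG in 6.34%. Windows were found for 8 of the 10 genes, 12 windows in all, of which 5 belonged to RBPJ. TGGGAA was in 2 of the 12 (HES1 and an RBPJ start with 2 matches), CACGNG in 5, CATCTG in 1 and CACGTG in 0. A match is a description of the letters and not a measured site. The search finds exact letters only, so binding sites with other letters are missed, and the matches in HES1 need not be its known sites.

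By level per kb of the MANE Select transcript the siCTR cells held RBPJ first, at 25.4 ± 0.447 CPM per kb, followed by HEY1 at 8.42 ± 0.229 and NOTCH2 at 7.34 ± 0.378 (SD, n = 3 libraries). NOTCH3 (4.26 CPM per kb) and JAG2 (3.92) overlapped over libraries, and then came DLL3 (3.198), JAG1 (2.604), MAML2 (2.28), HES1 (1.48) and NOTCH1 (0.0558), each apart from its neighbours. In siHAND2 NOTCH2 stood second at 14.5 ± 0.737 CPM per kb, above HEY1 at 8.37 ± 0.597. HES1 there (2.77 CPM per kb) overlapped DLL3 (2.72), which overlapped JAG1 (2.38). In siMYCN HEY1 stood at 13.1 ± 1.83 CPM per kb, and MAML2 (3.40) overlapped JAG2 (3.71). With the union of all annotated exons instead, a choice added after the data were seen, several places turned. In siCTR HEY1 (3.37 CPM per kb) came below NOTCH2 (5.01), NOTCH3 (3.93) and JAG2 (3.54), and MAML2 (2.28) above JAG1 (1.66). In siHAND2 NOTCH2 (9.87) came above RBPJ (8.21), so the order between genes, the first place included, depends on the length used.

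**Figure D3:**
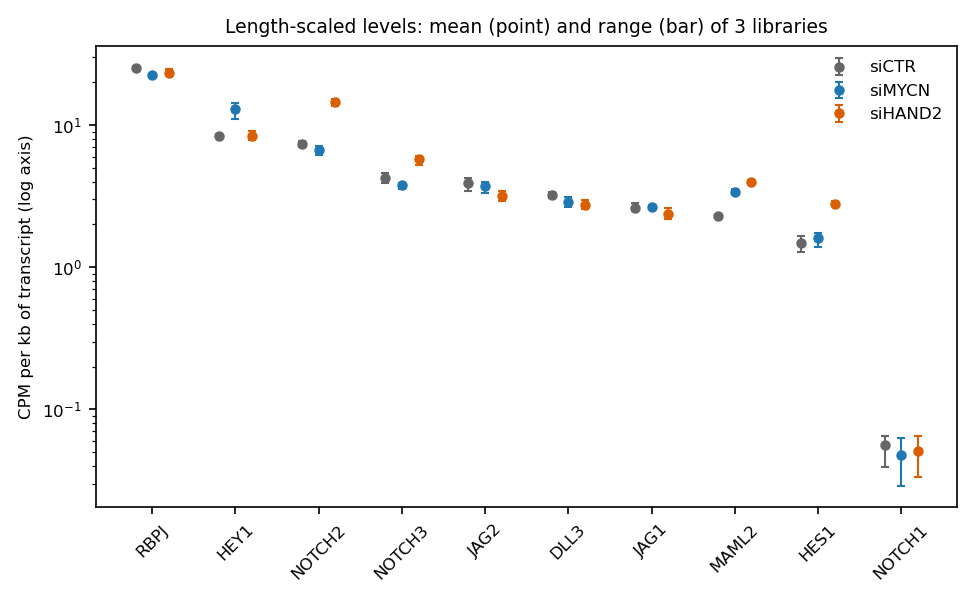
Length-scaled level (CPM per kb of the MANE Select transcript, log axis) of the 10 genes in order of their siCTR level; points are means and bars the range of 3 libraries per siRNA group. With this length RBPJ is highest in every group, NOTCH1 is lowest, and NOTCH2 lies above HEY1 in siHAND2 (14.5 against 8.37 CPM per kb); with the union of exons NOTCH2 (9.87) lies above RBPJ (8.21) in siHAND2.

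Counted over the 10 genes, siMYCN against siCTR gave 2 higher (MAML2 and HEY1) and 1 lower (RBPJ) of 9 tested (limma, adjusted p under 0.05). Among all 14495 genes tested 35.9% passed, 24.5% higher and 11.4% lower. That balance moved with the scaling: 3556 of the 5209 calls were higher, but with quantile normalization it was 2333 of 4728 (49.3%) and with rescaling by median ratios 2478 of 4792 (51.7%). The libraries of the groups were apart for the same 3 genes of the 10, and for 49.5% of all genes (33.4% upward and 16.1% downward). After median-ratio rescaling or quantile normalization the count was 2 higher and 3 lower, with NOTCH2 and NOTCH3 added. The same count came without siHAND2 replicate 3 and with replicate number as a term in the fit. It was 2 higher and 2 lower without siCTR replicate 3 or siMYCN replicate 3. Their median change was -0.07 beside 0.06 over all genes tested, and 3 of 9 is a share near that of all genes.

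In siHAND2 against siCTR, 4 were higher (NOTCH2, NOTCH3, MAML2 and HES1) and 2 lower (JAG2 and RBPJ) of 9 tested, beside 29.9% of all genes (18.1% higher and 11.8% lower). Over all genes 2630 of 4339 calls were higher, against 47.8% of calls with quantile normalization and 48.3% with rescaling by median ratios. The median change was -0.01 beside 0.04 over all genes. The 4 rises passed in all 19 alternatives, apart from HES1, which a filter of 5 CPM removed. In contrast, the count of falls was 0 or 1 when any library was left out: 0 without siCTR replicate 1, siCTR replicate 2 or siHAND2 replicate 2, and 1 without any of the other 6. It was also 0 with no intensity trend. The 3 siHAND2 libraries were apart from the 3 siCTR libraries for 4 genes upward and 2 downward (DLL3 and RBPJ) of the 10, and for 42.4% of all genes tested (25.8% upward and 16.6% downward). The comparisons against siCTR share its 3 libraries. The 10 genes were chosen with earlier results of these data known, so the counts beside the shares of all genes are descriptions.

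Set directly against siMYCN, siHAND2 gave 4 higher (NOTCH2, NOTCH3, MAML2 and HES1) and 1 lower (HEY1) of 9, beside 26.9% of all genes (11.4% higher and 15.5% lower). The libraries of the knockdowns were apart for the same 5 genes of the 10, 4 upward and 1 downward, and for 38.7% of all genes (17.1% upward and 21.6% downward). All 5 passed in every alternative in which they were tested. JAG2 joined the falls without siMYCN replicate 3 or siHAND2 replicate 1, or with replicate number as a term in the fit, which made 2 lower. NOTCH2 was the only one of the 9 with a difference of at least 1 on the log2 scale.

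**Figure D4:**
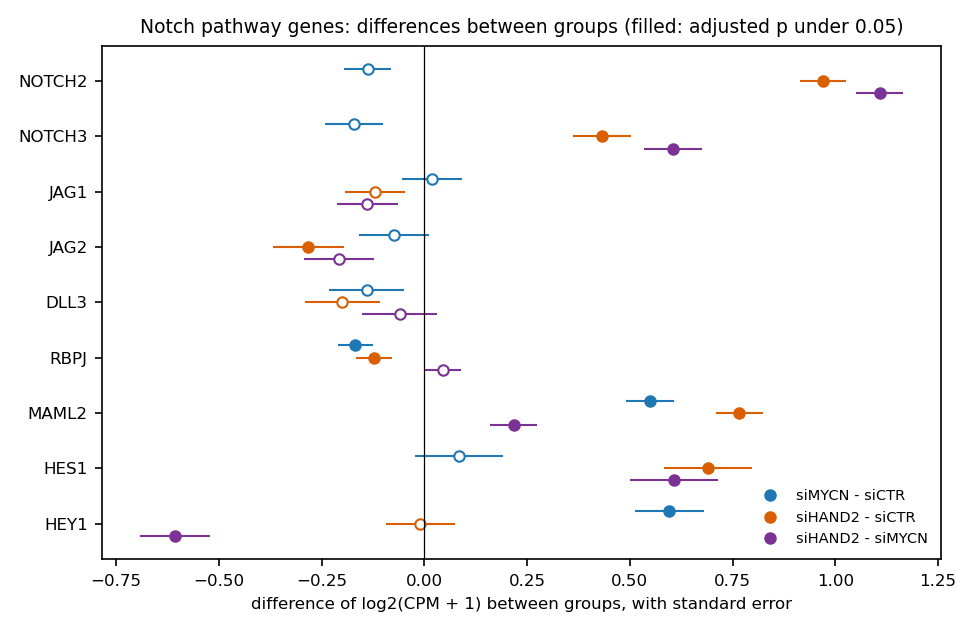
Difference of log2(CPM + 1) between groups (horizontal axis) with its standard error for the 9 genes tested, NOTCH1 being below the filter; filled points have an adjusted p under 0.05 (limma). NOTCH2 (0.97) and MAML2 (0.77) rise most in siHAND2, HEY1 (0.60) and MAML2 (0.55) in siMYCN, and HES1 and HEY1 part in the direct comparison.

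Among the 11201 genes whose mean reached 5 CPM, those whose log2 level over the 9 libraries was most like that of NOTCH2 were SLITRK4 (Pearson r = 0.993), EYA4 (0.992) and ISOC1 (0.992). SLITRK4, a synaptic adhesion gene, went from 7.17 ± 0.475 CPM in siCTR and 6.94 ± 1.07 in siMYCN to 19.9 ± 0.404 in siHAND2. Most like MAML2 were CAMK2D (r = 0.998), ANK3 (0.994) and CRAMP1 (0.993), of which ANK3, the scaffold of the axon initial segment, measured 12.9 ± 0.77, 19.97 ± 1.38 and 24.3 ± 1.22 CPM. The libraries fall into 3 groups, so these values of r mostly reflect alike group means, and they are given as a description. Of the other Notch genes NOTCH3 (0.94) and HES1 (0.95) had the highest r with NOTCH2 over the same 9 libraries.

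Beyond the 10 genes, 67 others of the pathway were listed, of which 64 were found and 59 tested. In siMYCN 19 rose and 4 fell (limma, adjusted p under 0.05), with a median change of 0.11 beside 0.06 over all genes. In siHAND2 15 rose and 7 fell, with a median of 0.08 beside 0.04. The shares of all genes are those given above (24.5% and 11.4%, 18.1% and 11.8%). This list too was chosen with earlier results of these data known, so its counts are descriptions. Quantile normalization lowered the siMYCN rises to 11 of 59, beside 2333 of 14495 over all genes. Median-ratio rescaling gave 13 of 59, beside 2478 of 14495. The siMYCN falls numbered 2 without siCTR replicate 2 or siMYCN replicate 3. The siHAND2 rises numbered 8 without siCTR replicate 2.

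Of the other receptors and ligands, 0 of 4 tested passed in siMYCN (all genes 35.9%) and 3 fell in siHAND2 (all genes 11.8%). DLK1, a noncanonical ligand of immature chromaffin and fat cells, measured 7.67, 8.16 and 7.78 CPM with the control siRNA, 8.58, 7.59 and 7.78 CPM with siMYCN and 1.48, 1.23 and 1.70 CPM with siHAND2. All its siHAND2 libraries were low, a change of -1.85 (limma, adjusted p = 4.76e-10) that was -0.99 at a pseudocount of 5. The noncanonical ligand gene CNTN1, an adhesion protein of axons, fell by 0.69 in siHAND2 (adjusted p = 4.11e-07), from 126 ± 12.9 to 77.7 ± 4.51 CPM. The third was DLK2 (-0.40, adjusted p = 0.00654), which lies under the mean of 5 CPM set for naming genes and was added after its value was seen. Its change was -0.24 at a pseudocount of 5. NOTCH4 lay between 3.19 and 4.59 CPM over all libraries and passed in no comparison.

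Of the 9 cleavage genes, 5 rose and 0 fell in siMYCN (all genes 24.5% and 11.4%). In siHAND2 0 rose and 1 fell (all genes 18.1% and 11.8%). The siMYCN rises included FURIN (0.32), ADAM10 (0.19) and the gamma-secretase genes NCSTN (0.21) and APH1B (0.33), named after their values were seen. ADAM10 measured 140.1, 134 and 144 CPM with the control siRNA, 152, 159.9 and 164 CPM with siMYCN and 143, 144 and 144 CPM with siHAND2. Its siMYCN libraries were the highest of all 9. FURIN lost its call without siCTR replicate 3 (0.24), APH1B without siCTR replicate 3 (0.26) or siMYCN replicate 3 (0.25), and NCSTN without siMYCN replicate 2 (0.18). Quantile normalization ended the call of APH1B (0.25) and median-ratio rescaling that of NCSTN (0.16). The fall in siHAND2 was that of PSEN2 (-0.29, limma, adjusted p = 0.0142), lost without siCTR replicate 2 (-0.27) or siHAND2 replicate 3 (-0.19). Directly compared, 4 of the 9 were lower in siHAND2 than in siMYCN (all genes 15.5%), among them PSEN2 (-0.42), FURIN (-0.27) and ADAM10 (-0.14). The call of FURIN was lost under either rescaling (-0.25 in each), with no filter or no intensity trend (-0.27 in each) and without siMYCN replicate 1 (-0.22) or 3 (-0.27) or siHAND2 replicate 1 (-0.25) or 3 (-0.22). That of ADAM10 was lost with no intensity trend (-0.14) and without siMYCN replicate 2 (-0.13) or 3 (-0.11) or siHAND2 replicate 2 (-0.14). None of the 5 glycosylation genes tested passed against siCTR, beside 35.9% of all genes in siMYCN and 29.9% in siHAND2.

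The ubiquitin ligases and endocytic regulators gave 6 rises and 1 fall of 14 in siMYCN (all genes 24.5% and 11.4%). In siHAND2 they gave 3 rises and 1 fall (all genes 18.1% and 11.8%). AAK1, a kinase of clathrin adaptors, had the largest rise in both: 31.2, 31.7 and 31.6 CPM with the control siRNA, 39.5, 48.0 and 48.8 CPM with siMYCN and 38.4, 42.9 and 47.8 CPM with siHAND2. Both knockdowns lay above all controls, by 0.51 (limma, adjusted p = 0.000124) and 0.43 (adjusted p = 0.000607). NEURL1B, a ligase that acts on ligands, rose by 0.22 in siHAND2 (adjusted p = 0.0084) and 0.37 in siMYCN (adjusted p = 0.000125). Its relative NEURL1 fell by 0.41 in siHAND2 (adjusted p = 0.00958) and by 0.34 in siMYCN (adjusted p = 0.0234). The siMYCN call of NEURL1 was lost without siCTR replicate 2 (-0.30) or siMYCN replicate 2 (-0.34) or 3 (-0.29) and with no filter on low values (-0.34). At a pseudocount of 5 its changes were -0.26 in siHAND2 and -0.22 in siMYCN.

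Coactivators gave 4 rises and 1 fall of 7 in siMYCN (all genes 24.5% and 11.4%) and 5 rises in siHAND2 (18.1%). EP300, MAML3 and MAML1 are named for the calls they lost. In siMYCN EP300 (0.17) lost its call in 9 of 19 alternatives and MAML3 (0.17) in 4. Both were lost under median-ratio rescaling and under quantile normalization. In siHAND2 MAML3 (0.14) lost its call in 8 of 19, EP300 (0.24) in 2 and MAML1 (0.20) in 1. The acetyltransferase genes KAT2B (0.38 and 0.35, limma, adjusted p = 0.00535 and 0.0112) and CREBBP (0.27 and 0.32, adjusted p = 0.00055 and 0.000158) rose in both knockdowns. Without siHAND2 replicate 3 the rise of KAT2B in siHAND2 was 0.23. KAT2A fell by 0.20 in siMYCN (adjusted p = 0.00748) and differed by -0.06 in siHAND2 (adjusted p = 0.403). Corepressors gave 4 rises of 16 in siMYCN (all genes 24.5%, a near share) and 7 in siHAND2 (18.1%), with 0 falls in each. Among these TLE2, a Groucho-type corepressor, went from 1.14 ± 0.2 to 2.12 ± 0.361 CPM in siHAND2 (0.54, adjusted p = 0.00407). That value was 0.21 at a pseudocount of 5 and 0.84 at 0.1.

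Of the 4 other target and HES family genes tested, 2 fell and 0 rose in each knockdown. Among all genes 11.4% fell in siMYCN and 11.8% in siHAND2. NRARP, a feedback inhibitor that Notch activates, measured 10.2, 9.73 and 8.30 CPM with the control siRNA, 7.73, 7.67 and 7.61 CPM with siMYCN and 8.85, 8.60 and 9.21 CPM with siHAND2. It fell by 0.26 in siMYCN (limma, adjusted p = 0.0209), a call lost without siCTR replicate 1 (-0.21) or 2 (-0.24) or siMYCN replicate 3 (-0.26) and with no filter on low values (-0.26), and its difference in siHAND2 was -0.07 (adjusted p = 0.553). HES7, the segmentation clock repressor, lies near the filter and fell from 2.55 ± 0.368 CPM to 1.35 ± 0.292 CPM in siMYCN and 1.36 ± 0.203 CPM in siHAND2 (-0.59 and -0.58, adjusted p = 0.00201 and 0.00282). Both changes were -0.25 at a pseudocount of 5. HES6, which is known to oppose HES1 in neurons, fell by 0.24 in siHAND2 (adjusted p = 0.0338). This call was lost without siCTR replicate 2 (-0.19) or 3 (-0.23) or siHAND2 replicate 3 (-0.16), and with no filter or no intensity trend (-0.24 in each). HES5 stayed at or under 0.319 CPM in every library.

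**Figure D5:**
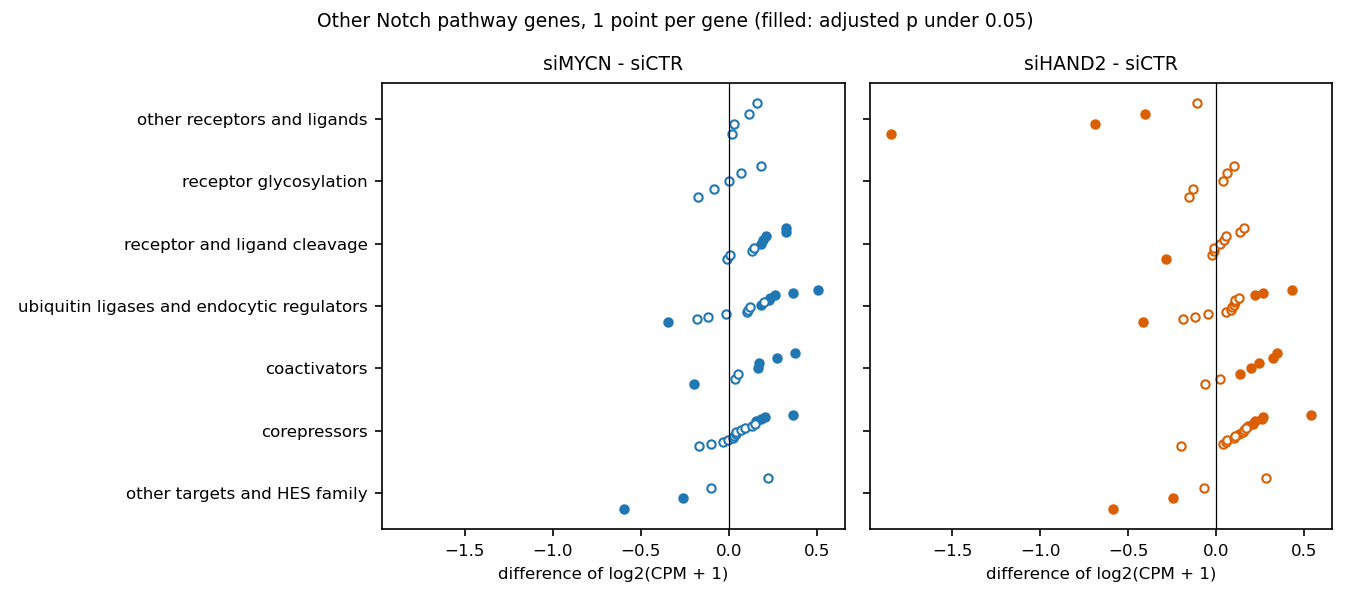
Difference of log2(CPM + 1) from siCTR (horizontal axis) in siMYCN (left) and siHAND2 (right) for the 59 other Notch pathway genes tested, 1 point per gene, in 7 classes; filled points have an adjusted p under 0.05 (limma). The point furthest left in siHAND2 is DLK1 (-1.85). In siMYCN 5 of the 9 cleavage genes are filled to the right of 0, beside 24.5% of all genes tested.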

How the data were processed

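RNA from 9 LAN5 libraries was sequenced by the submitters. The authors deposited CPM values for 25084 genes, with a constant of 0.0001 in every value. Per the submitters' processing notes STAR 2.5.1 and Partek were used. These notes name hg19 and GRCh37, but the starts in the table lie within 5000 bp of those of the GRCh38 RefSeq table for 91.4% of 18215 shared symbols and of GRCh37 for 5.62%, so coordinates are given as GRCh38. The stop given in the table lies 1 base past the annotated end, and 1 was subtracted. The counting rule, its use of strand and the annotation are not given in the sources used here. No other row of the table overlapped any of the 10 genes.

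Assigned reads were taken as the inverse of the CPM step of 1 read. This step was the most frequent low value above the constant, refined on its whole multiples. Of low values (up to 20 steps), 79.4% to 80.9% were whole within 0.02 of a step, too few for a count model. Counting error at 1 CPM is 17.5% to 21.8% and covers counting error only. The 14495 genes that reached 1 CPM in 3 or more libraries were fitted on log2(CPM + 1), 1 mean per group, with limma 3.58.1 in R 4.3.3 (intensity trend), adjusted by Benjamini-Hochberg over all genes tested. Two-sided tests were used, with a threshold of 0.05, and the fit was checked on simulated data. Ratios used exact permutation tests in scipy 1.17.1. Transcript lengths came from GENCODE 44 (MANE Select; the union of exons was added after the data were seen).

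All 10 genes were named. Of the other pathway genes, the 3 largest changes per direction and knockdown were named among called genes whose mean reached 5 CPM, with the extremes of a class. Some listed genes are not reported here by name. For the 2 members with the smallest p over the 3 groups, the 3 genes most alike were named. The members and lists were chosen with earlier results of these data known. Replicate numbers were not taken as pairs. Alternatives were pseudocounts of 0.1 and 5, quantile normalization, median-ratio rescaling, no filter on low values or one at 5 CPM, only the groups compared, no trend, precision weights from depth, a replicate block and the omission of each library.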

Additional observations from a re-analysis of the deposited data

How the results depend on the processing

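The rises of MAML2 and HEY1 in siMYCN and of NOTCH2, NOTCH3, MAML2 and HES1 in siHAND2 kept their direction and call in every alternative in which they were tested. The 5 calls of the direct comparison did so too. The number of the 10 genes that fell did not: in siMYCN it was 3 after median-ratio rescaling, 3 after quantile normalization and 2 with only the groups compared, and 1 to 3 with a library left out. In siHAND2 it was 1 with no filter, 0 with no intensity trend, 1 with only the groups compared and 0 to 1 with a library left out. Between the knockdowns it was 1 to 2 with a library left out. Among the other pathway genes, the siMYCN rises were 11 after quantile normalization, and the siMYCN falls were 2 with no filter and 2 to 5 with a library left out. The siHAND2 rises were 8 to 18 and those of siHAND2 over siMYCN 2 to 6 with a library left out. The cause was not tested.

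JAG1 in siMYCN, which did not pass the test, changed sign after median-ratio rescaling (-0.0345) and quantile normalization (-0.0576) and lay between -0.0124 and 0.0713 with a library left out. HEY1 in siHAND2, also not past the test, lay between -0.0611 and 0.0351 with a library left out.

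The replicate block (replicate number as a term) raised the count of the 10 genes that fell in siMYCN to 3, adding NOTCH2 (-0.14) and NOTCH3 (-0.17), and between the knockdowns to 2, adding JAG2 (-0.21). The main fit did not take the numbers as a pairing. Same-numbered libraries of different groups had correlated deviations of -0.04 to 0.305, over 0.1 in 6 of 9 pairs. Pairs with different numbers lay between -0.296 and 0.141. Whether same-numbered libraries shared a batch was not tested, so these values do not exclude it. Every library correlated best with its own number between siMYCN and siCTR (6 of 6), but not in the other comparisons (5 of 6 and 4 of 6). Depth limits NOTCH1 most, at 8 to 20 reads per library.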
